A study of Mus musculus with 6 samples.

Results

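The cadherins and protocadherins of mouse stem-like medulloblastoma cells were followed across 3 CRISPR guide groups. Members were chosen by name alone: every symbol made of Cdh and a number, or of Pcdh with a number or with a, b or g for the alpha, beta and gamma clusters. The rule gave 88 of 24063 gene symbols, of which 23 are cadherins, 12 are single protocadherins and 53 belong to the clusters (12 alpha, 22 beta and 19 gamma). All cells carried Math1-Cre and SmoM2, an active Smoothened driven into granule neuron progenitors of the cerebellum by Cre under the Math1 (Atoh1) promoter. The control cells, labelled WT, carried sgGal4-4, a guide named for a yeast gene, and so they were tumour cells with the same genotype as the others. The remaining cells, labelled Miat knockdown, carried either sgMiat-6 or sgMiat-96, guides that target Miat, a long noncoding RNA. Each guide has 2 libraries, and the labels do not say whether these came from separate cultures, so every p-value below measures the spread between these libraries, which may be technical. The labels do not say whether the cells are 1 line or several, or how old the animals were.

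Cadherins are cell surface proteins whose extracellular domains bind calcium and hold neighbouring cells together. Classical cadherins of type I and type II grip the actin skeleton through beta-catenin, alpha-catenin and p120-catenin, and in the developing cerebellum the cadherins a cell displays help set which cells it stays with. Protocadherins adhere weakly and do not bind beta-catenin; the delta-1 and delta-2 kinds signal to the cytoskeleton. The clustered protocadherins give single neurons a surface identity. An alpha or gamma transcript joins 1 variable first exon to constant exons that the whole cluster shares, while each beta gene is a single exon of its own.

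Depth was even over the 6 libraries, from 18438891 to 19650274 counts after 1 row was kept per symbol. Levels are given as CPM, counts scaled to library size with TMM factors, on which 3 counts were worth 0.149 to 0.173. Miat itself had 140 and 139 counts in the control libraries and 0 in all 4 Miat libraries, at least 178-fold lower against a limit of 3 counts over the Miat libraries. Of 11 markers of granule neuron progenitors and Hedgehog-type medulloblastoma, 9 reached 1 CPM in some library, with a summed level, mostly Nes and Sox2, of 1485 to 1669 CPM with sgGal4-4, 1826 to 2056 with sgMiat-6 and 1459 to 1941 with sgMiat-96. Hedgehog pathway genes and Mycn in that list were lower in the Miat groups. The means with sgGal4-4, sgMiat-6 and sgMiat-96 were 77.9, 28.0 and 8.05 CPM for Ptch1, 16.0, 2.32 and 2.05 for Gli1, 30.6, 7.98 and 5.49 for Gli2, and 11.2, 2.28 and 1.97 for Mycn. Zic1 was higher in the Miat groups (50.7, 106 and 110.2 CPM), as was Zic2 (15.4, 36.4 and 40.7). Atoh1, the gene whose promoter drives the Cre, was at 0 in every library. Longer transcripts were lower in the Miat libraries: the median log2 fold change for both guides ran from 0.44 in the 3305 genes with the shortest transcripts to -0.42 in the 3305 with the longest. The median transcript length was 4539 bases for the tested members against 2844 for all tested genes, so values with the length trend removed are given beside calls that they alter.

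Of the 88 members, 72 had enough counts to be tested, and 16 did not. In the comparison of both Miat guides with sgGal4-4, 56 members were called, 31 higher and 25 lower. A call is an edgeR adjusted p under 0.05, from the quasi-likelihood test with Benjamini-Hochberg adjustment over 13220 genes. In the same comparison 66.5% of all tested genes were called, 33.1% higher and 33.4% lower, and the members' share, 77.8%, is read against that. Those 56 are not 56 separate measurements, because alpha and gamma rows count shared reads. Among the 41 tested members outside the alpha and gamma clusters, 26 passed (63.4%), 12 higher and 14 lower. Counts over tested members carry no weight as support, since a gene passes the filter on low counts where any 1 group is high. The split depended on scaling, and became 14 higher and 14 lower with the length trend removed and 8 higher and 15 lower with total counts alone, a scaling under which the median of all tested genes shifts to -0.13.

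Type I cadherins were represented by Cdh2 and Cdh4, among the most abundant cadherins of these cells. Cdh2 (N-cadherin, the main adhesion molecule of neural progenitors, chr18:16588877-16809246 in RefSeq on GRCm38.p6, as for other gene positions below) had 193 and 185 CPM with sgGal4-4, 249.7 and 199 with sgMiat-6, and 133 and 160.3 with sgMiat-96. Both sgMiat-6 libraries lay above both controls and both sgMiat-96 libraries below them. Its log2 fold change was -0.06 (SE 0.11, edgeR adjusted p = 0.651) for both guides, 0.25 (SE 0.13, edgeR adjusted p = 0.119) for sgMiat-6 and -0.37 (SE 0.13, edgeR adjusted p = 0.0220) for sgMiat-96. With the length trend removed the value for both guides became 0.20 (edgeR adjusted p = 0.0299). The sgMiat-6 value then also passed the threshold, at 0.39 (edgeR adjusted p = 0.00201). The sgMiat-96 value became 0.02 with the length trend removed (edgeR adjusted p = 0.881), and it also missed the threshold without sgGal4-4 replicate 1 or without sgMiat-96 replicate 1 (-0.23, edgeR adjusted p = 0.196).

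Cdh4 (R-cadherin, a close relative of N-cadherin, chr2:179442423-179899377) had 186 and 174 CPM with sgGal4-4, 330.0 and 287 with sgMiat-6, and 209 and 253 with sgMiat-96. All 4 Miat libraries were above both controls, and the sgMiat-6 libraries were the highest. Cdh4 rose with a log2 fold change of 0.57 (SE 0.10, edgeR adjusted p = 3.53e-04) for both guides, 0.78 (SE 0.12, edgeR adjusted p = 1.29e-04) for sgMiat-6 and 0.36 (SE 0.12, edgeR adjusted p = 0.0160) for sgMiat-96. Its sgMiat-96 value was 0.16 with total counts alone (edgeR adjusted p = 0.278) and 1.01 with the length trend removed (edgeR adjusted p = 2.61e-07). The call with sgMiat-96 was also lost without sgGal4-4 replicate 2 and without sgMiat-96 replicate 2. The remaining type I members were near 0. Cdh1 (E-cadherin, of epithelia) had 3 counts in 1 control library and 2 in 1 sgMiat-96 library, Cdh3 (P-cadherin) had 2 counts in 1 control library, and Cdh15 (M-cadherin, of muscle) had 8 counts over the controls, 0 with sgMiat-6 and 5 with sgMiat-96.

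Type II cadherins ran from a log2 fold change of -5.72 to 3.10 for both guides, with 6 of 13 tested, 1 higher, 3 lower and 2 not called. Cdh20, the most abundant of them per length of transcript, had 172 and 169.9 CPM with sgGal4-4, 184 and 169.7 with sgMiat-6, and 149.7 and 174 with sgMiat-96. The groups overlapped, and the log2 fold change for both guides was -0.02 (SE 0.09, edgeR adjusted p = 0.890). Cdh20 had a mean of 45.9 CPM per kilobase with sgGal4-4, against 40.7 for Cdh2 and 28.4 for Cdh4. Cdh24 had 6.44 and 7.65 CPM with sgGal4-4, 6.79 and 8.47 with sgMiat-6, and 6.80 and 8.48 with sgMiat-96, also with overlap, and a log2 fold change of 0.12 (SE 0.18, edgeR adjusted p = 0.585).

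Cdh10 (chr15:18818869-19016206), a type II cadherin of the developing brain, had 2.01 and 2.33 CPM with sgGal4-4, 24.0 and 22.2 with sgMiat-6, and 15.6 and 14.8 with sgMiat-96. Every Miat library was several times above both controls, and the sgMiat-6 libraries were above the sgMiat-96 libraries. Cdh10 rose with a log2 fold change of 3.10 (SE 0.17, edgeR adjusted p = 7.85e-09) for both guides, an 8.59-fold change, with 3.40 (SE 0.18, edgeR adjusted p = 9.43e-09) for sgMiat-6 and 2.80 (SE 0.19, edgeR adjusted p = 5.77e-08) for sgMiat-96. The comparisons of the guides with sgGal4-4 share the same control libraries, here and below.

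Cdh6 (K-cadherin, first described in kidney, chr15:13028699-13176407) had 14.6 and 11.5 CPM with sgGal4-4, 0.496 and 0.306 with sgMiat-6, and 0.225 and 0.0577 with sgMiat-96. All 4 Miat libraries were far below both controls. It fell by 5.72 on the log2 scale for both guides (SE 0.29, edgeR adjusted p = 2.75e-09), a 52.9-fold decrease, with -5.00 (SE 0.34, edgeR adjusted p = 7.65e-08) for sgMiat-6 and -6.45 (SE 0.41, edgeR adjusted p = 3.74e-08) for sgMiat-96. Cdh22 (a type II cadherin of the brain, chr2:165111501-165234924) had 26.0 and 24.7 CPM with sgGal4-4, 2.93 and 3.32 with sgMiat-6, and 3.49 and 3.81 with sgMiat-96. Here too every Miat library was far below both controls, and the guides' ranges were close. Its log2 fold change was -2.91 (SE 0.14, edgeR adjusted p = 2.25e-09) for both guides, a 7.50-fold decrease, with -3.02 (SE 0.18, edgeR adjusted p = 2.38e-08) for sgMiat-6 and -2.79 (SE 0.18, edgeR adjusted p = 4.15e-08) for sgMiat-96.

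Cdh5 (VE-cadherin, the cadherin of endothelial junctions) was low throughout, with 0.824 and 1.47 CPM with sgGal4-4, 0.0496 and 0.204 with sgMiat-6, and 0 and 0 with sgMiat-96. Controls were above every Miat library. With sgMiat-6 its log2 fold change was -3.12 (SE 0.71, edgeR adjusted p = 0.00298), and this call was lost without sgGal4-4 replicate 2. With sgMiat-96 it had 0 counts against 45 in the controls, at least 13.5-fold lower against a limit of 3 counts over the group. Of 5 endothelial markers only Tek reached 1 CPM in any library and Cldn5 was at 0 in all. Their summed level was 4.84 to 5.52 CPM in the controls, 2.09 to 3.77 with sgMiat-6 and 2.42 in both sgMiat-96 libraries, and its part in the Cdh5 values was not tested. In bulk RNA, fewer cells of a type and less RNA per cell cannot be told apart.

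The other type II members were near or at 0. Cdh11 (OB-cadherin, of mesenchyme) had 3 counts over the controls, 7 with sgMiat-6 and 11 with sgMiat-96, a ratio to the controls of 3.14 for both guides (95% Clopper-Pearson interval 0.916 to 16.6, counting error only). Cdh19 had 0 counts in the controls and 5 over the Miat libraries, and Cdh7 had 2 counts in 1 control library. Cdh8, Cdh9, Cdh12 and Cdh18 had 0 counts in every library. Of 6 fibroblast and mesenchymal markers, 2 reached 1 CPM, and their summed level was 8.01 to 9.84 CPM in the controls, 0.868 to 1.49 with sgMiat-6 and 1.57 to 1.73 with sgMiat-96. Col1a1 carried most of the sum in the controls (mean 8.67 CPM, then 0.524 and 0.603), while Col3a1, the other marker to reach 1 CPM, was lowest there (0.0760, then 0.628 and 1.02). The part of these markers in the Cdh11 counts was not tested.

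Promoter sequences of Cdh10, Cdh6 and Cdh22, the 3 type II cadherins above 10 CPM in some library that were called for both guides, are shown because they differ widely in base composition. Each runs from 250 bases before to 50 bases after a transcript start in RefSeq (GRCm38.p6), written 5′ to 3′ on the gene's own strand. For all 3 genes this start lies inside the annotated RefSeq gene and not at its first base. The Cdh10 and Cdh6 windows lie wholly inside the gene. Cdh10 (chr15:18820079-18820378, plus strand) is 37.7% G or C with 2 CpG, Cdh6 (chr15:13173626-13173925, minus strand) is 53.0% with 8 CpG, and Cdh22 (chr2:165234688-165234987, minus strand) is 76.3% with 38 CpG, against medians of 52.7% and 7 CpG over 32851 promoters.
Cdh10: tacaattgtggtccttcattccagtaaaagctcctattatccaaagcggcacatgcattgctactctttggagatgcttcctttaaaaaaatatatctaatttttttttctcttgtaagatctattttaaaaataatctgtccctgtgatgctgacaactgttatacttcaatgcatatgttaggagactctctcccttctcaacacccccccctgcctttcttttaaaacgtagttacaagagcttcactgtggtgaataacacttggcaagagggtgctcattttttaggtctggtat
Cdh6: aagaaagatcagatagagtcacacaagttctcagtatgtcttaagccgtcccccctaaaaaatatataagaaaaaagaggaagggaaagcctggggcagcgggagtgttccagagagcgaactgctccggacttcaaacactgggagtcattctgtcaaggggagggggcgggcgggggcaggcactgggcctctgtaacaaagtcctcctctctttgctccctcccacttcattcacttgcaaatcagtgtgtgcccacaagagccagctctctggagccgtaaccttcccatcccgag
Cdh22: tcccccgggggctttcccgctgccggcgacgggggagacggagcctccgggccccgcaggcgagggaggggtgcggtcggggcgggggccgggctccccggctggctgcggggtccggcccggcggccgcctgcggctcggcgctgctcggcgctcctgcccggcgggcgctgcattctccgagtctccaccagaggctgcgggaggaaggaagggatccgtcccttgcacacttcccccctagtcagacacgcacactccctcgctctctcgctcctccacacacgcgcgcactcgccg
The letters CACCTG and CAGGTG, the same site read on either strand and the E-box bound by Zeb and Snail repressors of Cdh1, were searched in each. None of these 3 windows holds it, against 20.2% of all promoters.

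Of the cadherins outside type I and type II, Cdh13 (T-cadherin, held to the membrane by a lipid anchor with no cytoplasmic tail) had 42.8 and 40.6 CPM with sgGal4-4, 68.0 and 55.1 with sgMiat-6, and 31.8 and 39.6 with sgMiat-96. The sgMiat-6 libraries were above both controls and the sgMiat-96 libraries below them. Cdh13 rose with sgMiat-6 at a log2 fold change of 0.56 (SE 0.14, edgeR adjusted p = 0.00467). With sgMiat-96 the value was -0.22 (SE 0.14, edgeR adjusted p = 0.180), and it passed the threshold with the length trend removed (-0.36, edgeR adjusted p = 0.0355) and with total counts alone. Cdh26 had 0.670 and 0.405 CPM with sgGal4-4, 2.38 and 4.13 with sgMiat-6, and 1.80 and 2.02 with sgMiat-96, with all Miat libraries above both controls, and rose with a log2 fold change of 2.20 (SE 0.39, edgeR adjusted p = 2.64e-04) for both guides. Cdh23, partner of Pcdh15 in the tip link of hair cells, had 2 to 9 counts in each library, Cdh17 (of intestine) had 1 count in all and Cdh16 (of kidney) had 0. Across the 10 tested cadherins the median log2 fold change for both guides was 0.05, against 0.00 for all tested genes, with 3 higher, 3 lower and 4 not called.

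**Figure D1:**
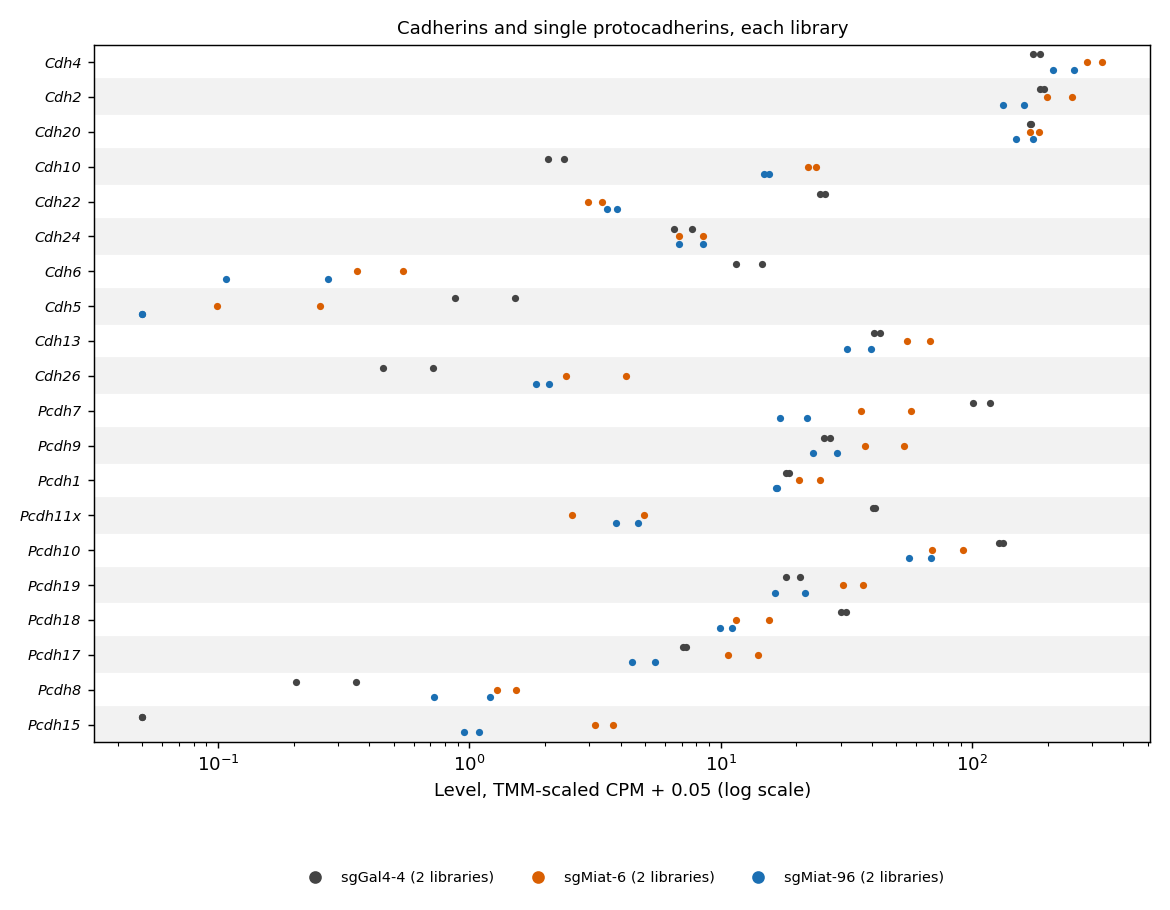
Level of each named cadherin and single protocadherin in each of the 6 libraries, in TMM-scaled CPM plus 0.05 on a log axis, with 1 point per library and colours for the 3 guides. Cdh5, Cdh6, Cdh22, Pcdh7, Pcdh10, Pcdh11x and Pcdh18 have both control points right of all Miat points. For Cdh4, Cdh10, Cdh26, Pcdh8 and Pcdh15 they lie left of all of them. Over all tested genes, the 4 Miat libraries were all higher than both controls in 34% and all lower in 33%.

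Single protocadherins of the delta-1 kind were all tested, with 1 higher, 2 lower and 1 not called for both guides and a median log2 fold change of -0.89. Pcdh7 (chr5:57716145-58133236), the most abundant per length of the 4 in the controls at 14.1 CPM per kilobase, had 118 and 100.3 CPM with sgGal4-4, 57.0 and 36.2 with sgMiat-6, and 17.1 and 21.9 with sgMiat-96. The controls were highest, sgMiat-6 was intermediate and sgMiat-96 was lowest, with no overlap between groups. Pcdh7 fell by 1.85 on the log2 scale for both guides (SE 0.16, edgeR adjusted p = 3.56e-07), with -1.23 (SE 0.19, edgeR adjusted p = 1.17e-04) for sgMiat-6 and -2.48 (SE 0.20, edgeR adjusted p = 2.64e-07) for sgMiat-96.

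Pcdh11x, an X-linked protocadherin (chrX:120290238-120910622), had 41.1 and 40.3 CPM with sgGal4-4, 4.91 and 2.50 with sgMiat-6, and 3.77 and 4.62 with sgMiat-96. All 4 Miat libraries were far below both controls, and the ranges of the guides overlapped. Its log2 fold change was -3.36 (SE 0.18, edgeR adjusted p = 6.13e-09) for both guides, a 10.3-fold decrease, with -3.45 (SE 0.23, edgeR adjusted p = 8.48e-08) for sgMiat-6 and -3.28 (SE 0.23, edgeR adjusted p = 1.03e-07) for sgMiat-96. Removing the length trend made the value for both guides -2.72, still called. Pcdh9 had 25.6 and 27.1 CPM with sgGal4-4, 53.7 and 37.5 with sgMiat-6, and 23.3 and 29.0 with sgMiat-96. Its sgMiat-6 libraries were above both controls, while sgMiat-96 overlapped them. Pcdh9 rose with sgMiat-6, at a log2 fold change of 0.79 (SE 0.17, edgeR adjusted p = 0.00165), and its value for both guides, 0.39 (SE 0.15, edgeR adjusted p = 0.0354), missed the threshold under 6 of 15 alternative settings. With sgMiat-96 it was -0.01 (SE 0.17, edgeR adjusted p = 0.951), and removing the length trend made this 0.60 (edgeR adjusted p = 0.00149). Pcdh1 had 18.7 and 18.1 CPM with sgGal4-4, 24.7 and 20.4 with sgMiat-6, and 16.5 and 16.7 with sgMiat-96. Both sgMiat-6 libraries were above the controls and both sgMiat-96 libraries below, and neither guide passed the threshold, at 0.29 (SE 0.15, edgeR adjusted p = 0.106) and -0.15 (SE 0.15, edgeR adjusted p = 0.386). The sgMiat-6 value passed with the length trend removed and without sgMiat-6 replicate 2.

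The 5 delta-2 protocadherins were all tested, with 2 higher, 2 lower and 1 not called for both guides and a median log2 fold change of 0.13. Pcdh10, which binds the WAVE complex of actin assembly through Nckap1, was the most abundant per length in the controls at 15.7 CPM per kilobase. It had 132 and 128 CPM with sgGal4-4, 91.6 and 68.9 with sgMiat-6, and 56.2 and 68.6 with sgMiat-96, so that all Miat libraries were below both controls. Pcdh10 fell at a log2 fold change of -0.88 (SE 0.12, edgeR adjusted p = 2.88e-05) for both guides, with -0.70 (SE 0.14, edgeR adjusted p = 0.00117) for sgMiat-6 and -1.06 (SE 0.14, edgeR adjusted p = 2.64e-05) for sgMiat-96. With the length trend removed the value for both guides was -0.27 (edgeR adjusted p = 0.00803) and that for sgMiat-6 -0.33. The sgMiat-96 value was -0.21 with the length trend removed (edgeR adjusted p = 0.0590). Pcdh18 had 31.6 and 30.0 CPM with sgGal4-4, 15.5 and 11.4 with sgMiat-6, and 11.1 and 9.93 with sgMiat-96. Every Miat library was below both controls, and the log2 fold change was -1.37 (SE 0.14, edgeR adjusted p = 1.80e-06) for both guides, with -1.19 (SE 0.16, edgeR adjusted p = 5.28e-05) for sgMiat-6 and -1.55 (SE 0.17, edgeR adjusted p = 3.84e-06) for sgMiat-96.

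Pcdh17, a protocadherin of synapses and axons, had 7.01 and 7.25 CPM with sgGal4-4, 14.0 and 10.7 with sgMiat-6, and 4.38 and 5.43 with sgMiat-96. The sgMiat-6 libraries were above both controls and the sgMiat-96 libraries below both. Its log2 fold change was 0.79 (SE 0.20, edgeR adjusted p = 0.00433) for sgMiat-6 and -0.54 (SE 0.21, edgeR adjusted p = 0.0376) for sgMiat-96. For both guides it was 0.13 (SE 0.18, edgeR adjusted p = 0.547), or 0.82 (edgeR adjusted p = 4.92e-04) after removal of the length trend. The fall with sgMiat-96 was lost under 6 of 15 alternative settings, and with the length trend removed the value was 0.42 (edgeR adjusted p = 0.0590). Pcdh19, an X-linked gene mutated in a human epilepsy, had 20.7 and 18.2 CPM with sgGal4-4, 36.8 and 30.7 with sgMiat-6, and 16.4 and 21.5 with sgMiat-96. The sgMiat-6 libraries were above the controls, and the sgMiat-96 libraries lay on either side of them. Pcdh19 rose with sgMiat-6, at a log2 fold change of 0.80 (SE 0.16, edgeR adjusted p = 0.00110). Its value for both guides was 0.38 (SE 0.14, edgeR adjusted p = 0.0315), and its sgMiat-96 value was -0.04 (SE 0.17, edgeR adjusted p = 0.855). The value for both guides became 1.12 under the length-corrected fit. With the length trend removed the sgMiat-96 value was 0.98 (edgeR adjusted p = 1.90e-05), and the call for both guides was lost under 5 of 15 alternative settings. Pcdh8, which takes part in cell sorting in the early embryo, was low, with 0.155 and 0.304 CPM with sgGal4-4, 1.24 and 1.48 with sgMiat-6, and 0.675 and 1.15 with sgMiat-96. All Miat libraries were above both controls, and it rose at a log2 fold change of 2.24 (SE 0.51, edgeR adjusted p = 0.00176) for both guides.

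Pcdh15, the protein that meets Cdh23 in the hair cell tip link (chr10:73096277-74649831), had 0 and 0 CPM with sgGal4-4, 3.67 and 3.11 with sgMiat-6, and 0.899 and 1.04 with sgMiat-96. It had 0 counts in the controls, 135 over the sgMiat-6 libraries and 34 over the sgMiat-96 libraries. Against a limit of 3 counts over the control group it was at least 44.3-fold higher with sgMiat-6 (edgeR adjusted p = 2.40e-06) and at least 12.6-fold higher with sgMiat-96 (edgeR adjusted p = 7.17e-05). The files list 14 transcript rows for Pcdh15, and the row used is the one with the highest total count. Of the 2 remaining single protocadherins, Pcdh12 (of endothelium) had 3 counts in 1 control library and Pcdh20 had 0 in all.

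The promoters of Pcdh15 and Pcdh7 are shown because, of 22 members with an entry in the RefSeq table (GRCm38.p6), they and Cdh7 are the only 3 whose window holds CACCTG or CAGGTG, given in capitals. Pcdh15 (chr10:73821617-73821916, plus strand) holds it from base 149 of the window and Pcdh7 (chr5:57717831-57718130, plus strand) from base 283, where the transcript starts after base 250.
Pcdh15: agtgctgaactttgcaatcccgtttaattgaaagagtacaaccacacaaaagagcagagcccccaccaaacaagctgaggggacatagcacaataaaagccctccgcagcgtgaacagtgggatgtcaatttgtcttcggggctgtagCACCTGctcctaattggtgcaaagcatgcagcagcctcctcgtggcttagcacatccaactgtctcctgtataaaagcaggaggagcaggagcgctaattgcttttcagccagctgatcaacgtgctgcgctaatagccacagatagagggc
Pcdh7: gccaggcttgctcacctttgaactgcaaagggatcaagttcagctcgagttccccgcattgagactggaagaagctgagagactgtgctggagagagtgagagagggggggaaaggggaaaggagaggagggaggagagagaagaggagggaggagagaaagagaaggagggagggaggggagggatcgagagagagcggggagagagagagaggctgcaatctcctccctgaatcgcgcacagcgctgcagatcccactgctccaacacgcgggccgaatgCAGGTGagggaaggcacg
Pcdh15 rose and Pcdh7 fell, and a match of letters is not a bound site. For both genes the start in the RefSeq table lies inside the annotated RefSeq gene and not at its first base.

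**Figure D2:**
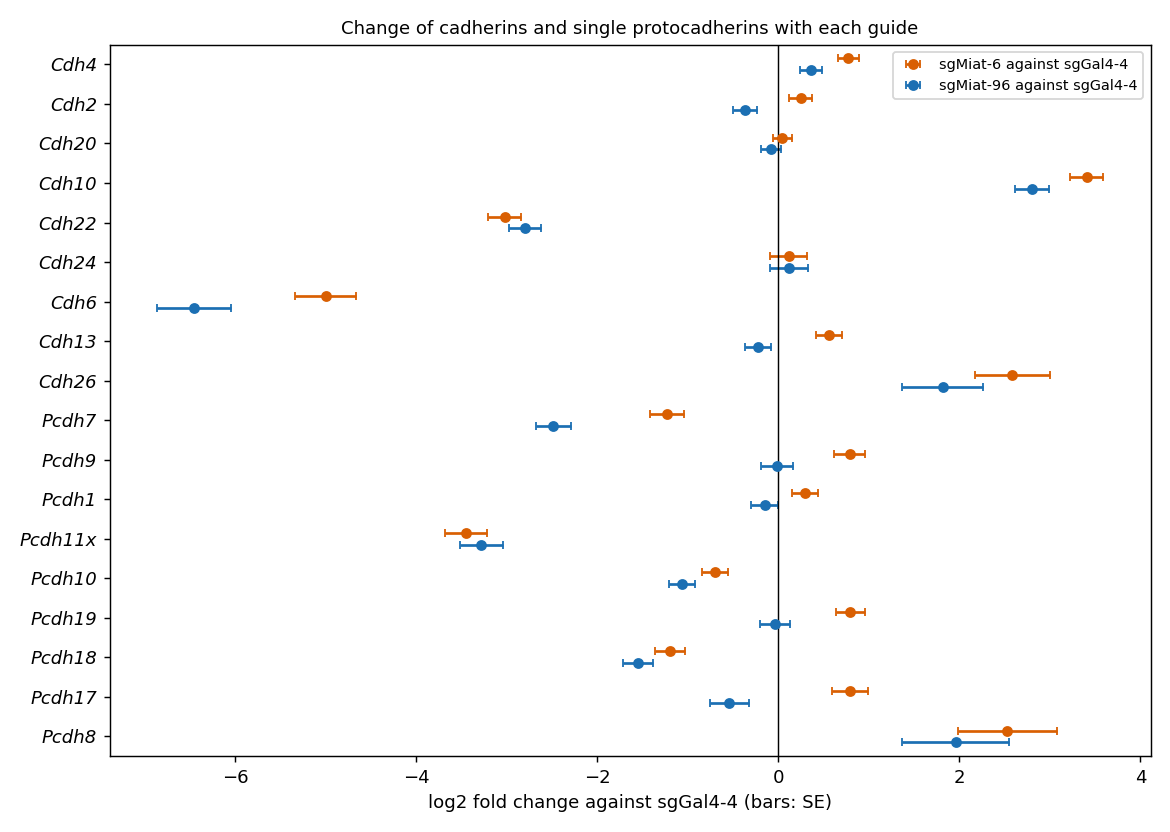
Log2 fold change of each named cadherin and single protocadherin against sgGal4-4, with 1 point per guide and bars of 1 SE on a linear axis, leaving out Cdh5 and Pcdh15 because a group is at 0 counts. Cdh6, Cdh22, Pcdh11x, Pcdh18, Pcdh10 and Pcdh7 lie left of 0 for both guides, Cdh10, Cdh26, Pcdh8 and Cdh4 lie right of it, and Pcdh17 lies at 0.79 with sgMiat-6 and -0.54 with sgMiat-96.

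Beta cluster genes are single exons, and no base is shared by all 22 models in GENCODE M21. Of these models only Pcdhb21 and Pcdhb22 overlap, with 4250 of 4705 and 6154 of 6609 bases of their own. The genes resemble each other in sequence, and how reads that match several of them were counted is not stated, so single beta values carry that uncertainty. Of 21 tested, 5 rose, 7 fell and 9 were not called for both guides, or 57.1% called against 66.5% of all tested genes, and the median log2 fold change was -0.22. The summed level of the 22 genes was 184 and 174 CPM with sgGal4-4, 161 and 123 with sgMiat-6, and 119 and 128 with sgMiat-96. All Miat libraries were below both controls in that sum. Pcdhb1 had 0 counts in every library.

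Pcdhb5, the most abundant beta gene, had 36.6 and 38.1 CPM with sgGal4-4, 17.4 and 14.6 with sgMiat-6, and 8.83 and 13.6 with sgMiat-96. Controls were above every Miat library, and the log2 fold change was -1.48 (SE 0.15, edgeR adjusted p = 2.11e-06) for both guides, with -1.22 (SE 0.18, edgeR adjusted p = 9.23e-05) for sgMiat-6 and -1.73 (SE 0.19, edgeR adjusted p = 3.44e-06) for sgMiat-96. Pcdhb11 had 21.9 and 20.8 CPM with sgGal4-4, 1.79 and 2.81 with sgMiat-6, and 2.25 and 2.31 with sgMiat-96. The 4 Miat libraries were close to each other and far below both controls, at -3.22 (SE 0.17, edgeR adjusted p = 5.66e-09) for both guides, a 9.32-fold decrease. Pcdhb4 had 17.2 and 16.9 CPM with sgGal4-4, 1.54 and 2.19 with sgMiat-6, and 3.60 and 3.75 with sgMiat-96. It was lowest with sgMiat-6 and fell with each guide, at -3.19 (SE 0.22, edgeR adjusted p = 8.75e-08) for sgMiat-6 and -2.21 (SE 0.20, edgeR adjusted p = 8.54e-07) for sgMiat-96. Pcdhb8 had 6.39 and 5.27 CPM with sgGal4-4, 0.744 and 0.510 with sgMiat-6, and 0.618 and 0.404 with sgMiat-96, with every Miat library far below both controls, and a log2 fold change of -3.35 (SE 0.28, edgeR adjusted p = 3.18e-07) for both guides.

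Pcdhb6 had 14.1 and 13.6 CPM with sgGal4-4, 29.1 and 17.7 with sgMiat-6, and 16.3 and 17.7 with sgMiat-96. All Miat libraries were above both controls, 1 sgMiat-6 library the most. It rose at 0.53 (SE 0.18, edgeR adjusted p = 0.0188) for both guides, a call lost under 4 of 15 alternative settings. Pcdhb17 had 12.3 and 9.02 CPM with sgGal4-4, 16.3 and 13.5 with sgMiat-6, and 13.3 and 14.1 with sgMiat-96, also above both controls in every Miat library, and its value for both guides, 0.43 (SE 0.16, edgeR adjusted p = 0.0322), missed the threshold under 7 of 15 settings. Pcdhb16 had 12.6 and 11.4 CPM with sgGal4-4, 18.4 and 10.5 with sgMiat-6, and 9.67 and 9.52 with sgMiat-96, overlapping between groups, at -0.02 (SE 0.20, edgeR adjusted p = 0.924). The other 3 genes that rose were Pcdhb14, Pcdhb18 and Pcdhb15, at log2 fold changes of 1.68, 1.18 and 1.29. The other 3 that fell were Pcdhb10, Pcdhb2 and Pcdhb21, at -1.53, -1.10 and -0.83. These 6 were named after their values were seen, and their adjusted p in edgeR ranged from 1.06e-05 for Pcdhb14 to 0.0209 for Pcdhb21.

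The beta genes are numbered in their order along chromosome 18, from Pcdhb1 at chr18:37264998-37267454 to Pcdhb22 at chr18:37518353-37521419. Of the 10 tested genes from Pcdhb2 to Pcdhb11, 6 fell and 1, Pcdhb6, rose. Of the 11 from Pcdhb12 to Pcdhb22, 4 rose (Pcdhb14, Pcdhb15, Pcdhb17 and Pcdhb18) and 1, Pcdhb21, fell. This division was seen in the data and is a description, with no test. Neighbours could differ sharply: Pcdhb5 fell and Pcdhb6, the next gene, rose.

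**Figure D3:**
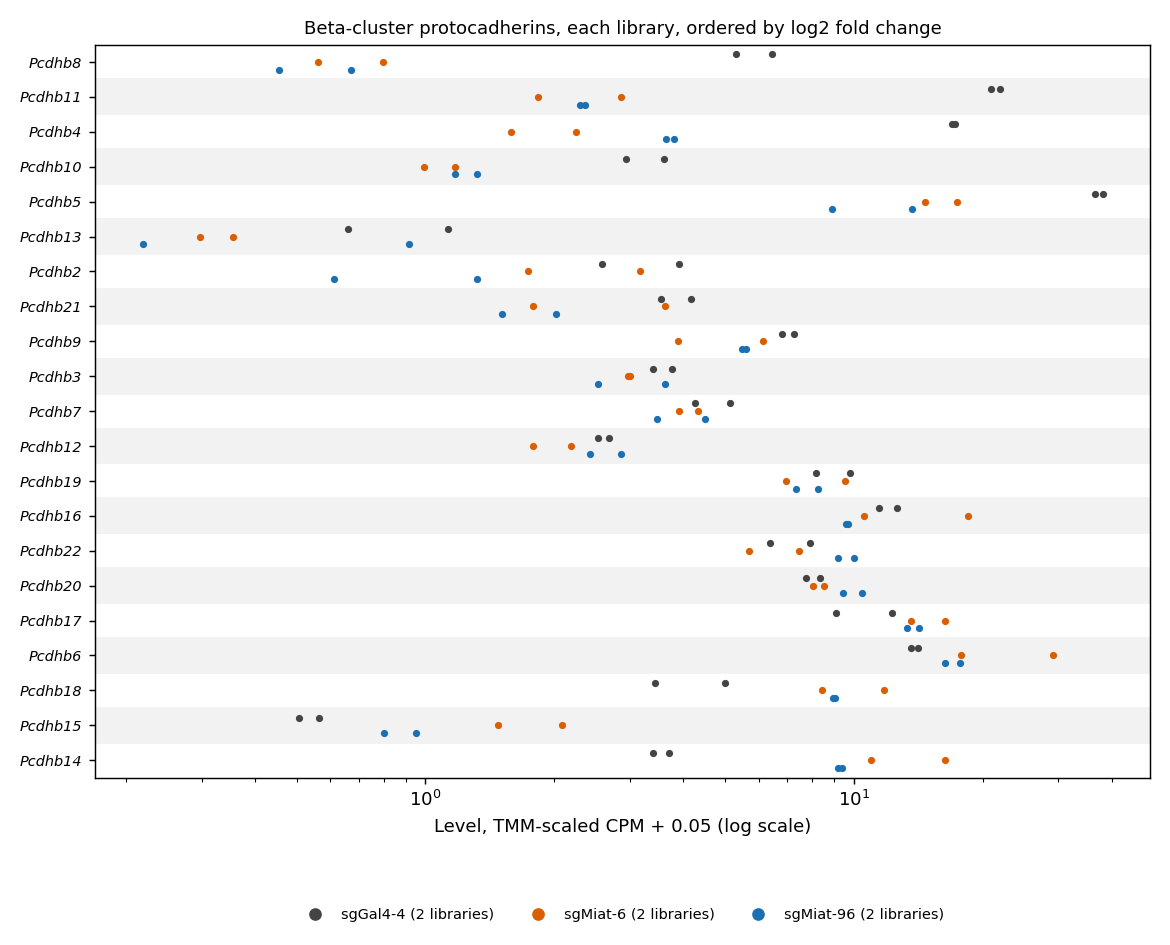
Level of each tested beta-cluster protocadherin in each library, in TMM-scaled CPM plus 0.05 on a log axis, ordered from the lowest to the highest log2 fold change for both guides, with 1 point per library. Pcdhb8, Pcdhb11, Pcdhb4, Pcdhb10 and Pcdhb5 at the top have both control points right of all Miat points, and Pcdhb14, Pcdhb15 and Pcdhb18 at the bottom have them left of all.

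Alpha and gamma members could not be told apart in these files. In GENCODE M21 each model has 4 exons, with a median of 2480 bases of its own and 2860 also found in another member for alpha, and 2601 and 2119 for gamma. Each row counts the shared reads again. Of the 12 alpha members 7 had counts identical to another member in every library, and the 19 gamma members differed within a library by 0.437% to 3.81% of the lowest. The lowest count over a cluster's members is therefore taken below as the shared count, a single measurement for each cluster, and what a row holds above it as reads closer to that member's own exon.

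The alpha shared count was 31.8 and 34.5 CPM with sgGal4-4, 25.1 and 26.2 with sgMiat-6, and 25.1 and 29.9 with sgMiat-96. All Miat libraries were below both controls. Pcdha1, whose row equals the shared count, had a log2 fold change of -0.32 (SE 0.11, edgeR adjusted p = 0.0252) for both guides, -0.37 (SE 0.13, edgeR adjusted p = 0.0335) for sgMiat-6 and -0.27 (SE 0.13, edgeR adjusted p = 0.0895) for sgMiat-96. The call for both guides was lost, at 0.02, with the length trend removed, and also with only the groups compared and without sgGal4-4 replicate 1, sgGal4-4 replicate 2 or sgMiat-96 replicate 1. Pcdha7, Pcdha9 and Pcdha12 had values of -0.33, -0.34 and -0.33, which repeat the same reads. Of the 12 alpha rows 11 were called for both guides, all lower. For sgMiat-96 edgeR called 0 of them, with 1, Pcdha9, at an unadjusted p under 0.05, and DESeq2 also called 0.

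Pcdha10 was the alpha member with the most reads of its own. Above the shared count it had 4 and 2 counts with sgGal4-4, 130 and 75 with sgMiat-6, and 18 and 47 with sgMiat-96. Every Miat library was above both controls. Its whole row, mostly shared reads, had 32.0 and 34.6 CPM with sgGal4-4, 31.6 and 30.0 with sgMiat-6, and 26.1 and 32.6 with sgMiat-96 and a log2 fold change of -0.15 (SE 0.12, edgeR adjusted p = 0.286). Pcdha9 and Pcdha12 went the other way above the shared count, from 32 to 13 and 5 counts and from 20 to 11 and 3 counts per group with sgGal4-4, sgMiat-6 and sgMiat-96. No other alpha member had more than 6 such counts in a group. The alpha C-type gene Pcdhac2, outside the naming rule, held 612 and 564 counts above the shared count with sgGal4-4, 225 and 142 with sgMiat-6, and 58 and 65 with sgMiat-96.

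The gamma shared count was 365 and 339 CPM with sgGal4-4, 563 and 662 with sgMiat-6, and 927 and 974 with sgMiat-96. The groups did not overlap, and sgMiat-96 was highest. Pcdhga6 had 365 and 339 CPM with sgGal4-4, 564 and 663 with sgMiat-6, and 927 and 975 with sgMiat-96, and rose at a log2 fold change of 1.12 (SE 0.10, edgeR adjusted p = 6.34e-07) for both guides, 0.80 (SE 0.11, edgeR adjusted p = 5.17e-05) for sgMiat-6 and 1.43 (SE 0.11, edgeR adjusted p = 2.06e-07) for sgMiat-96. The 19 gamma rows had values between 1.11 and 1.14 for both guides, among them Pcdhga1, Pcdhga10, Pcdhgb1 and Pcdhgb2 at 1.11, 1.14, 1.12 and 1.11. These too are 1 measurement.

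The gamma members with the most reads above the shared count were Pcdhga10, Pcdhgb2 and Pcdhgb1. Pcdhga10 had 3 and 2 counts above it with sgGal4-4, 432 and 287 with sgMiat-6, and 72 and 133 with sgMiat-96. Pcdhgb1 had 6 and 1 counts, then 152 and 121, then 16 and 23. For both genes every Miat library was above both controls, and sgMiat-6 was highest. Pcdhgb2 had 39 and 41 counts, then 98 and 76, then 38 and 76, and scaled to library size 1 sgMiat-96 library, at 2.14 CPM, was barely above the controls, at 2.01 and 2.08. Most reads above the gamma shared count belonged to the C-type gene Pcdhgc3, outside the rule, with 6570 and 6034 counts with sgGal4-4, 8975 and 6150 with sgMiat-6, and 2454 and 4764 with sgMiat-96. These counts are small for all but Pcdhgc3 and carry no test.

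Reads above the shared count, most of them from the C-type genes Pcdhac2 and Pcdhgc3, became scarcer relative to it. Summed over members and C-type genes, their ratio to the shared count was 1.05 and 0.875 for alpha with sgGal4-4, 0.736 and 0.448 with sgMiat-6, and 0.184 and 0.226 with sgMiat-96. For gamma it was 0.956 and 0.928, then 0.863 and 0.521, then 0.160 and 0.301. In both clusters the controls were highest and sgMiat-96 lowest. The same direction was seen in 66 other genes whose long and short transcript rows differ by extra sequence at the 5′ end. Their median ratio of extra to shared counts was 0.0177 and 0.0152 with sgGal4-4, 0.0133 and 0.0130 with sgMiat-6, and 0.0034 and 0.0054 with sgMiat-96. In 8 genes with extra sequence at the 3′ end it was 0.0483 and 0.0628, then 0.0678 and 0.0838, then 0.107 and 0.0883. The variable exons of the clusters lie at the 5′ end and the shared exons at the 3′ end, and the part of this coverage in the alpha and gamma values was not tested.

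**Figure D4:**
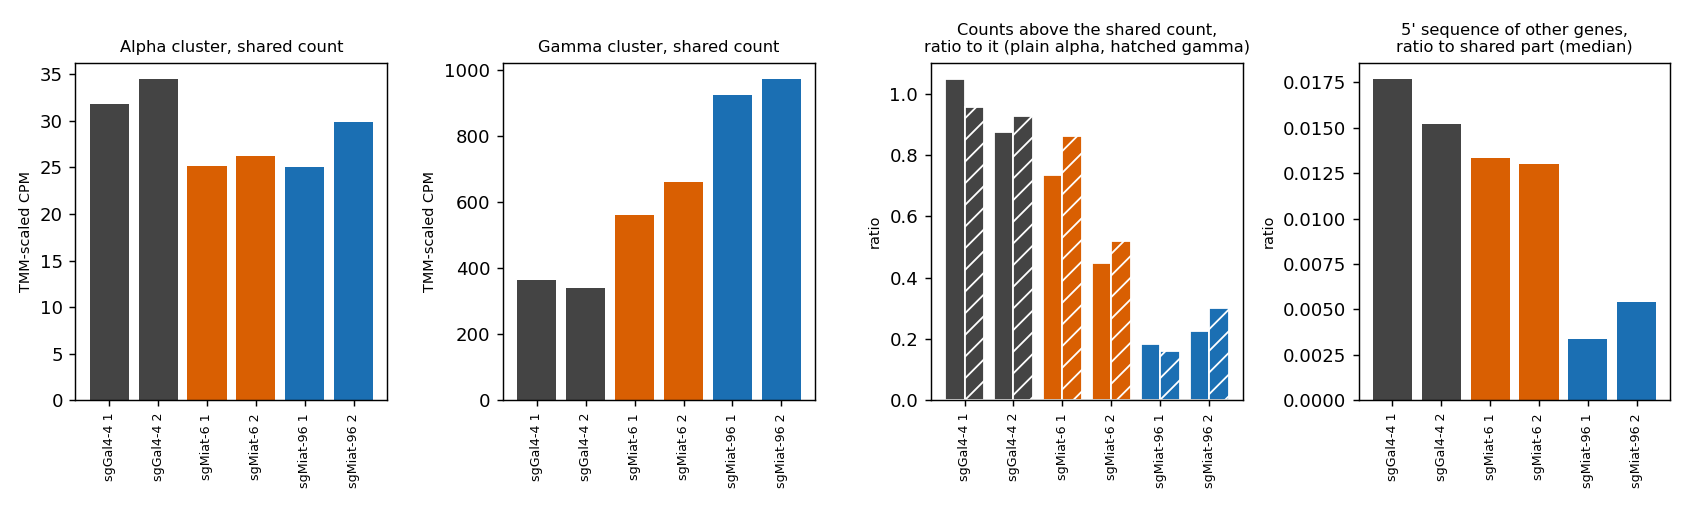
The first 2 panels show the alpha and gamma shared counts in TMM-scaled CPM, 1 bar per library. The other panels show ratios, of counts above the shared count to it (plain alpha, hatched gamma, C-type genes included) and of 5′ extra to shared counts in 66 other genes (median). Gamma bars rise from 365 and 339 CPM in the controls to 927 and 974 with sgMiat-96, where both ratios are lowest.

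For sgMiat-6 against sgGal4-4, 56 of 72 tested members were called, 33 higher and 23 lower, where 53% of all genes were called, 26.9% higher and 26.1% lower. For sgMiat-96 it was 42, 26 higher and 16 lower, where 68.2% of all genes were called, 34% higher and 34.2% lower. Outside the alpha and gamma clusters 26 of 41 were called with sgMiat-6, 14 higher and 12 lower (63.4%), and 23 with sgMiat-96, 7 higher and 16 lower (56.1%). With the length trend removed the sgMiat-96 split was 12 higher and 14 lower.

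The guides were also compared with each other, a difference that uses no control level, although the control libraries add to the shared estimate of spread. With only the libraries of the Miat guides fitted, 38 members outside alpha and gamma were tested and 13 called, where 33.1% of all genes were called. Of the 41 members outside alpha and gamma, 14 were called between sgMiat-96 and sgMiat-6, 2 higher and 12 lower with sgMiat-96, where 36.7% of all genes were called, 17.8% higher and 18.8% lower. Most of the 14 calls were lost without sgMiat-96 replicate 1, and several without sgMiat-6 replicate 1. In both of these fits, which leave a guide with a single library, the share of all genes called fell as well. With the length trend removed the split was 3 higher and 8 lower, and with total counts alone 1 higher and 18 lower. Pcdh7, Pcdh17 and Cdh13 were lower with sgMiat-96 in every one of the 15 alternative settings, at log2 differences of -1.25 (SE 0.20, edgeR adjusted p = 0.00104), -1.33 (SE 0.21, edgeR adjusted p = 9.87e-04) and -0.79 (SE 0.14, edgeR adjusted p = 0.00194). Pcdhb4 was higher with sgMiat-96, at 0.98 (SE 0.24, edgeR adjusted p = 0.00867), a call lost without sgMiat-96 replicate 1 (1.01, edgeR adjusted p = 0.0582) or sgMiat-6 replicate 1. Cdh4, Cdh2 and Cdh10 were lower with sgMiat-96, at -0.42, -0.61 and -0.60, and each lost its call without sgMiat-96 replicate 1, at -0.29, -0.49 and -0.64. The Cdh4 call was also lost with the length trend removed, at -0.03 (edgeR adjusted p = 0.767), and without sgMiat-6 replicate 1, at -0.32.

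The genes that cadherins work with were read from the same fit, for both guides, where 33.1% of all tested genes were called higher and 33.4% lower. Of 11 tested catenins and adherens junction genes, 3 rose and 5 fell (median -0.19). Ctnna2 (the neural alpha-catenin) had 1 count over the controls and 261 over the Miat libraries, a ratio of 136 (95% Clopper-Pearson interval 24.3 to 5410, counting error only). Ctnnal1 rose at 1.16 (SE 0.12, edgeR adjusted p = 3.21e-06), and Jup (plakoglobin, which can stand in for beta-catenin) fell at -1.11 (SE 0.12, edgeR adjusted p = 3.03e-06). Ctnnb1 (beta-catenin) and Ctnna1 did not pass, at -0.19 (SE 0.09, edgeR adjusted p = 0.0764) and -0.18 (SE 0.10, edgeR adjusted p = 0.123). Of 7 tested Fat, Dchs and Celsr giant cadherins, 2 rose and 3 fell, or 5 and 2 under the length-corrected fit. Fat3 fell at -3.83 (SE 0.18, edgeR adjusted p = 1.56e-09) and Celsr2 at -1.15 (SE 0.12, edgeR adjusted p = 3.12e-06), while Fat4 rose at 0.55 (SE 0.16, edgeR adjusted p = 0.00739). Of 14 desmosomal genes only Pkp2 and Pkp4 were tested, and Pkp2 (plakophilin) rose from 1 count to 221, a ratio of 116 (interval 20.5 to 4584). Of 2 tested other cadherin-related genes, Cdhr1 fell at -4.98 (SE 0.34, edgeR adjusted p = 5.28e-08). Of the 5 C-type clustered protocadherins, which share the reads described above, 3 were higher and 2 lower, among them Pcdhgc4 and Pcdhgc5 at 1.11 and 1.11 and Pcdhac2 at -0.94. The rows of Pcdhgc4, Pcdhgc5 and Pcdhac1 repeat the shared counts, with at most 23, 16 and 5 counts above them in a group.

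Of 13 genes of proteases that cut cadherins, 7 rose and 2 fell (median 0.39). The list includes Ncstn, Aph1a, Aph1b and Psenen, which are non-catalytic subunits of a protease complex. Adam15 rose at 1.24 (SE 0.10, edgeR adjusted p = 3.31e-07) and Adam9 fell at -0.99 (SE 0.10, edgeR adjusted p = 2.51e-06). Mmp14, a membrane metalloprotease, had 0 counts in the controls and 254 over the Miat libraries, at least 44.3-fold higher against a limit of 3 counts over the controls. Adam10, the main sheddase of N-cadherin and gamma protocadherins, did not pass, at 0.07 (SE 0.11, edgeR adjusted p = 0.598). It passed with the length trend removed, at 0.32 (edgeR adjusted p = 0.00255). Among repressors of Cdh1, 4 of 9 were tested, 1 higher and 3 lower, or 1 and 1 under the length-corrected fit. Zeb1 and Tcf4 fell at -0.84 (SE 0.10, edgeR adjusted p = 7.87e-06) and -0.62 (SE 0.11, edgeR adjusted p = 2.55e-04), and Tcf3 (E2A) rose at 0.70 (SE 0.10, edgeR adjusted p = 3.13e-05). With the length trend removed Tcf4 was no longer called, at -0.07 (edgeR adjusted p = 0.402), while Zeb1 was still called, at -0.45. Adam10, Ctnnb1 and Ctnna1 were chosen after their values were seen.

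Genes that control the choice of clustered promoters were lower more often than higher. Of 16 tested, 1 rose and 12 fell (median -0.56), or 2 and 7 under the length-corrected fit (median -0.15), in which 4554 of 13220 genes were called higher and 4119 lower. Rad21, a cohesin subunit, fell at -1.55 (SE 0.10, edgeR adjusted p = 2.78e-08). Nipbl, the cohesin loader, fell at -1.84 (SE 0.12, edgeR adjusted p = 2.92e-08), and Rest, a repressor of neuronal genes, at -1.99 (SE 0.23, edgeR adjusted p = 7.56e-06). Of 9 WAVE complex genes, 1 rose and 5 fell (median -0.37), and Abi2, Wasf2 and Cyfip2 fell at -0.93 (SE 0.09, edgeR adjusted p = 2.02e-06), -1.23 (SE 0.15, edgeR adjusted p = 8.81e-06) and -1.05 (SE 0.16, edgeR adjusted p = 8.13e-05). These lists are described by counts and medians and were not tested as lists.

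Markers of other cell types moved with the guides. The summed level of 5 astrocyte markers, nearly all from Slc1a3 with Gja1 at 0, was 1942 to 1950 CPM with sgGal4-4, 598 to 700 with sgMiat-6, and 461 to 462 with sgMiat-96. That of 5 oligodendrocyte markers, nearly all from Olig2, was 948 to 995, then 1163 to 1198, then 1465 to 1501 CPM. Mature neuron markers summed to at most 1.11 CPM, epithelial markers to at most 0.255 and microglia and blood markers to at most 6.0. The part of these in the cadherin and protocadherin values was not tested.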

How the data were processed

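RNA from mouse stem-like medulloblastoma cells was measured in 6 libraries, 2 per guide, grouped by the guide in each label. The submitters' processing notes name STAR and the mouse build GRCm38, also called mm10. The sources used here give no counter, annotation release, strand setting or version. The authors deposited a raw read count per RefSeq transcript row, with an FPKM value per row and a TPM value per row, per the file headers. TPM was not used. FPKM served to set to 0 the 11223 rows of sgMiat-96 replicate 2 whose count was listed above 0 with FPKM at 0. Transcript lengths, used for the length trend, CPM per kilobase and the longest row, were worked out from counts and FPKM. For each symbol the row with the highest total count was kept.

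Counts were fitted in edgeR 4.0.16 (limma 3.58.1, R 4.3.3) with filterByExpr, TMM scaling and 1 term per guide, which left 3 residual degrees of freedom and a biological coefficient of variation of 0.0986. The quasi-likelihood test was adjusted by the Benjamini-Hochberg method over 13220 genes, and an adjusted p under 0.05 was called. Python 3.11.15, pandas 2.3.3, numpy 2.4.6, scipy 1.17.1 and matplotlib 3.10.9 were used for the rest. The procedure was tested on simulated data. Alternatives were DESeq2 1.42.0, other scalings, no filter, counts as listed, the longest row and the length trend taken out. A replicate block, separate fits of only the groups compared and each library left out were the others. For both guides the separate fit kept all 6 libraries and joined the Miat guides in 1 group. The length trend was a loess (span 0.3), for each library, of log2 CPM less the gene's mean on log2 transcript length. It entered the fit as an offset. Counting intervals (95%) and limits of 3 counts cover counting error only.

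Named members are cadherins and single protocadherins with a group mean of at least 1 CPM, and for each cluster the 4 with the highest level and the 4 with the smallest adjusted p; each partner list gives its 3 smallest. Members and lists were chosen with earlier results of these data known, and the measure of extra 5′ and 3′ sequence was chosen after seeing the data. Gene positions and promoters are from RefSeq on GRCm38.p6, and the exons of the clusters from GENCODE M21 on GRCm38.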

Additional observations from a re-analysis of the deposited data

Results flagged for a closer look

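The levels of several members differed between the Miat guides by a test of that difference, sgMiat-96 minus sgMiat-6, in edgeR's quasi-likelihood fit. Among cadherins the log2 differences were -0.79 for Cdh13, -0.61 for Cdh2, -0.60 for Cdh10 and -0.42 for Cdh4. Among single protocadherins they were -1.80 for Pcdh15, -1.33 for Pcdh17, -1.25 for Pcdh7, -0.83 for Pcdh19, -0.80 for Pcdh9 and -0.44 for Pcdh1. Pcdhb4 differed by 0.98. The gamma rows, which count shared reads, differed by 0.63 for Pcdhga1, 0.60 for Pcdhga10, 0.63 for Pcdhga6, 0.62 for Pcdhgb1 and 0.63 for Pcdhgb2. The calls of Cdh13, Pcdh7, Pcdh17 and these gamma rows were kept in all 15 alternative settings. Those of Cdh10, Cdh2, Cdh4, Pcdh1, Pcdh15, Pcdh19, Pcdh9 and Pcdhb4 were lost without sgMiat-96 replicate 1, where the differences were -0.64, -0.49, -0.29, -0.43, -1.70, -0.65, -0.66 and 1.01 in that order, and that of Pcdh1 was lost in 9 settings. With the length trend removed the Cdh4 difference was -0.03 and was not called. Groups of 2 libraries are too small for a check of single libraries that stand apart.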

How the results depend on the processing

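Over 37 named members and 15 alternative settings, 498 of 555 values for both guides kept their direction and their side of the threshold. Another 18 changed sign, whether or not their call changed. The rest kept their sign, where 38 lost the call and 1, Pcdh17 with the length trend removed, gained it. Among the sign changes with the length trend removed, Cdh2 gained a call and Pcdha1 lost its call. The cause was not tested. Alpha and gamma rows are counted one by one in these totals and in the counts of members called below, although they repeat shared reads. Members called ranged over the libraries left out in turn from 40 to 56 for both guides, 43 to 59 for sgMiat-6, 39 to 54 for sgMiat-96 and 22 to 40 between the guides. With a replicate block the counts were 56, 56, 41 and 30; same-numbered libraries did not deviate together (correlations 0.00947, -0.0910 and -0.213), so the numbers are not taken as pairs. For both guides the sign turned with the length trend removed for Cdh2 (0.20), Cdh20 (0.13), Pcdhb16 (0.31), Pcdha1 (0.021), Pcdha7 (0.010), Pcdha9 (0.0079), Pcdha10 (0.19) and Pcdha12 (0.0092). It turned with total counts alone for Cdh24 (-0.014), Pcdh1 (-0.056) and Pcdh17 (-0.0021), and with only the groups compared for Pcdhb16 (0.0082). With libraries left out in turn, Cdh2 ranged from -0.14 to 0.0086, Cdh20 from -0.069 to 0.040, Cdh24 from -0.0026 to 0.24 and Pcdhb16 from -0.25 to 0.14, and none of these 4 was called with all libraries. For both guides, the setting with only the groups compared joined the Miat guides in 1 group, so their difference counted as spread. It gave 38 calls for both guides against 56, and 19 against 26 outside alpha and gamma. The share of all genes called fell from 66.5% to 45.3%. Total counts alone gave 55 for sgMiat-96 against 42, 25 higher and 30 lower in place of 26 and 16. Outside alpha and gamma it gave 24 against 23, 6 higher and 18 lower in place of 7 and 16.

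With 2 libraries a guide, the spread rests on 3 residual degrees of freedom, and 16 members had too few counts to test. Libraries of a group differed more with the Miat guides than in the controls, and chi-square between replicates averaged 4.13 a gene in the controls, 19.2 under sgMiat-6 and 14.0 under sgMiat-96. Alpha and gamma members are 1 measurement per cluster. Strand is not stated, so antisense reads cannot be told apart.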
